A study of Homo sapiens with 9 samples.

Results

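The permeability barrier of the epidermis is a layer of ceramides, cholesterol and fatty acids that keratinocytes secrete as they cornify. Serine palmitoyltransferase starts the sphingoid base, elongases lengthen the fatty acid, a ceramide synthase joins both, glucosylation prepares the ceramide for storage, and a transporter loads it into lamellar granules. Hydrolases later set the ceramide free, and lipoxygenases oxidize the linoleate of acylceramide so that it can be bound to the cornified envelope. Loss of several of these genes is known to cause ichthyosis. The 9 genes described here were chosen by name for these roles, with earlier results of these data known. They are SPTLC3 and CERS3 (ceramide synthesis), ELOVL1 and ELOVL4 (elongation), UGCG (glucosylation), SMPD1 (sphingomyelin hydrolysis), ABCA12 (transport into lamellar granules), and ALOX12B and ALOXE3 (lipoxygenation of acylceramide). Of 16199 genes listed in at least 1 library, all 9 were among them, 8 of the 9 were listed in all 9 libraries, and 7 had enough counts to be tested.

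The RNA came from HaCaT, an immortalized human keratinocyte line. The 3 groups, with 3 libraries each, were untreated cells, cells given EGF at 10 nM and cells given bleogen pB1, a cactus peptide that activates the EGF receptor, at 1 µM. Treatment lasted 24 h, began after the cells had become confluent, and was in medium without serum. The doses of the 2 agents differ, and each was used at 1 dose and 1 time. The labels do not say whether replicates were separate cultures, so p-values measure the spread between these libraries, which may be technical.

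The libraries held 20288417 to 21320994 expected counts (estimated fragments per gene). CPM are counts relative to library size, elsewhere adjusted by TMM factors. Before that adjustment, 3 counts corresponded to 0.141 to 0.148 CPM, a floor that covers counting error only. All 5 keratinocyte markers (KRT5, KRT14, TP63, ITGA6 and DSG3) were detected. Their summed level was 4378 to 4870 FPKM (fragments relative to depth and gene length) in untreated, 3547 to 3747 in EGF-treated and 4565 to 5275 in bleogen pB1-treated libraries. KRT5 made up most of this sum, with a mean of 3506 FPKM in untreated and 1547 FPKM in EGF-treated libraries. The mean FPKM of KRT14 (1008 and 1772), TP63 (48.7 and 66.2) and ITGA6 (102 and 240) was higher with EGF. That of DSG3 was similar (31.7 and 32.1). Of 7 markers of differentiated keratinocytes, LOR was at 0 in all untreated and bleogen pB1-treated libraries. Their summed level was 35.3 to 37.6 FPKM in untreated, 27.2 to 35.1 in EGF-treated and 32.6 to 39.3 in bleogen pB1-treated libraries.

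Promoter sequences were taken from RefSeq (GRCh38.p14), which matched 8 of the 9 genes, all but SPTLC3. The 100 bases before the outermost start in RefSeq are shown for CERS3 and ALOXE3, whose levels differed most with EGF, and for ELOVL1, the most abundant member. They are read 5′ to 3′ on the minus strand, on which all 3 genes lie. The gene spans of GENCODE given below reach further out, so that by GENCODE the CERS3 and ALOXE3 stretches lie within the gene and the ELOVL1 stretch partly so. Capitals mark matches to the GC box GGGCGG or to CCAAT, on either strand.
CERS3, chr15:100544684-100544783: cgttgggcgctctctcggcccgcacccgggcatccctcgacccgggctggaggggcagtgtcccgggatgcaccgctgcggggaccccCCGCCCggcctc
ALOXE3, chr17:8118917-8119016: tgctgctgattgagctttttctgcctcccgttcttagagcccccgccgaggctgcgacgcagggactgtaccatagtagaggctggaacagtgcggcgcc
ELOVL1, chr1:43368012-43368111: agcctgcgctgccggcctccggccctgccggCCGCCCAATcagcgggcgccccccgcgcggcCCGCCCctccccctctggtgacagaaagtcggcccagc
The CERS3 stretch holds 1 GC box, 12 bases before the start. The ELOVL1 stretch holds 2, of which 1 shares letters with a CCAAT match. The ALOXE3 stretch holds no match.
Over 250 bases before the start, 6 of the 8 promoters had a GC box, against 42.6% of 35116 RefSeq promoter entries, and 3 of 8 had CCAAT, against 32.0%. The AP-1 site TGANTCA (6.57% of entries) and the TATA box TATAAA (10.7%) were found in none of the 8, which says only that these letters are not in these windows. The GC content of the windows was lowest for ABCA12 (48.8%) and ALOXE3 (52.0%) and highest for ELOVL1 (79.6%), with a median of 58.0% over all entries. RefSeq gives 4 starts for CERS3 and 3 for ALOXE3. Gene-level counts do not show which start these cells used.

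The 9 genes spanned a wide range of levels, and the order in untreated cells followed their place in the pathway only loosely. ELOVL1, which elongates saturated and monounsaturated very long chain fatty acids, was by far the most abundant at 71.5 ± 2.46 FPKM (mean ± SD, n = 3), above 93.2% of the listed genes. UGCG, the glucosylceramide synthase, followed at 14.8 ± 0.533 FPKM, and SPTLC3, an alternative large subunit of serine palmitoyltransferase, at 9.28 ± 0.311 FPKM. SMPD1, the acid sphingomyelinase, stood at 4.29 ± 0.236 FPKM.
The members most closely tied to the cornified barrier were lower. CERS3, which makes ceramides with ultra long acyl chains, stood at 2.09 ± 0.0907 FPKM and ABCA12 at 1.12 ± 0.0643 FPKM. ALOX12B was at 0.200 ± 0.0917 FPKM, ALOXE3 at 0.0833 ± 0.0351 FPKM and ELOVL4, the elongase of ultra long chains, at 0.0400 ± 0.0173 FPKM. The last 3 did not separate clearly, because the lowest ALOX12B library and the highest ALOXE3 library were both at 0.12 FPKM and ALOXE3 and ELOVL4 overlapped. Each of the other neighbours in this order was separated in all 3 untreated libraries. With either treatment ALOXE3 stood above ALOX12B, and with bleogen pB1 the order was otherwise that of untreated cells. With EGF, ABCA12 (1.29 to 1.53 FPKM) stood above CERS3 (0.76 to 1.01 FPKM), the reverse of their order in untreated cells.

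**Figure D1:**
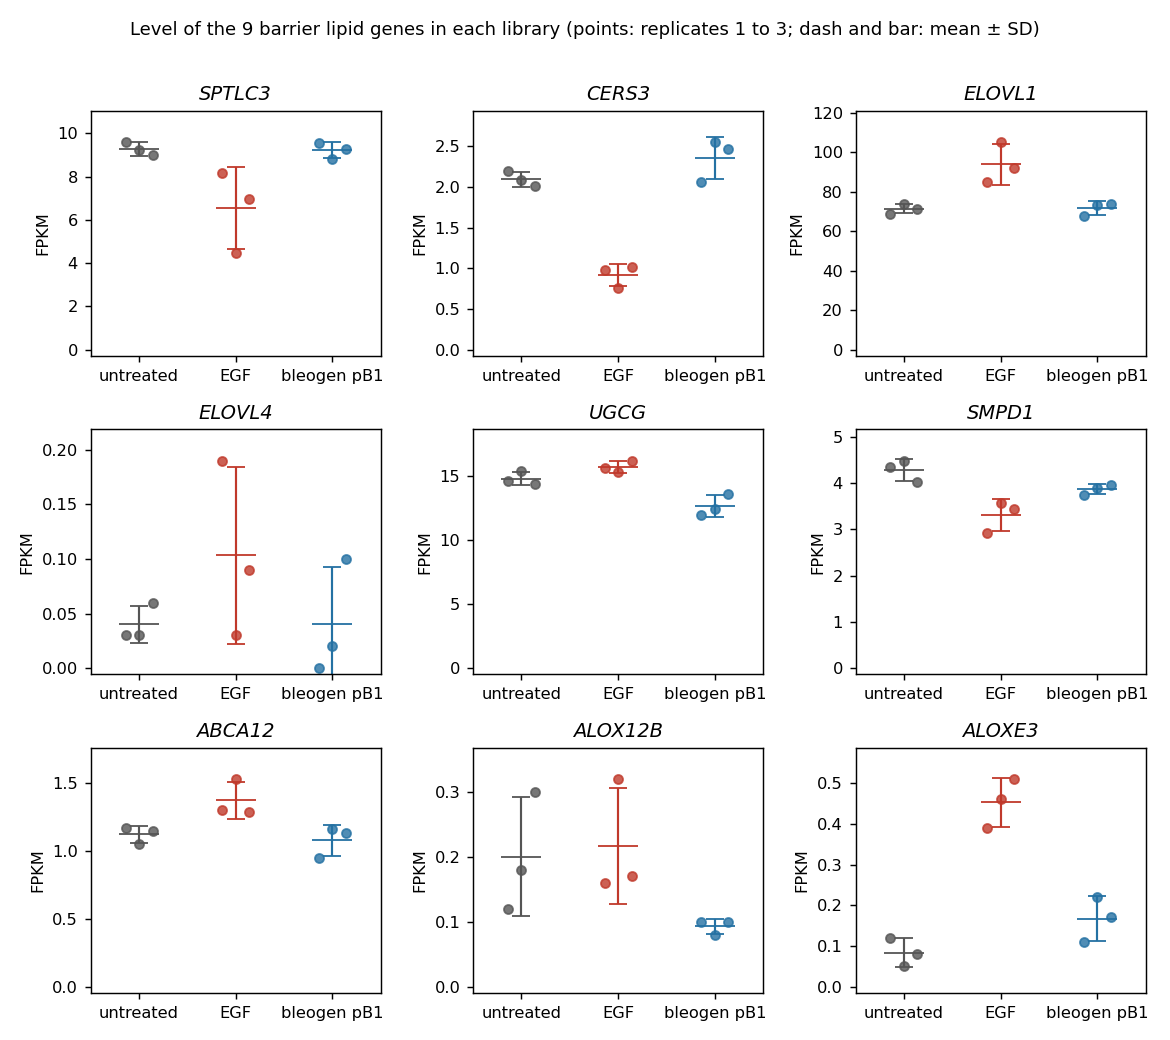
FPKM (linear axes with different ranges) of the 9 genes in each untreated, EGF-treated and bleogen pB1-treated library. Points are libraries, dashes with bars are mean ± SD (n = 3). CERS3 and ALOXE3 show the clearest separation of the EGF libraries, and SPTLC3 has 1 EGF library far below the other two.

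With EGF, CERS3 was downregulated and ALOXE3 upregulated, and none of the other tested members passed both limits. DEGs were genes with an adjusted p of at most 0.05 (edgeR quasi-likelihood test, Benjamini-Hochberg over 12394 genes) and a log2 fold change of at least 0.5 in size. By this rule, 36.9% of all tested genes were DEGs with EGF, 15.1% upregulated and 21.8% downregulated, so that 2 DEGs among 7 tested members are no more than the background. By adjusted p alone 6 of 7 members passed, against 66.1% of all genes, and the libraries of the 2 groups did not overlap for 7 of 7 members, against 70.4% of all genes. The median log2 fold change of the 7 was 0.15, beside -0.01 for all tested genes. An exact permutation test of 3 against 3 libraries cannot give a p under 0.1, the value found for each of these 7 genes.

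CERS3 (chromosome 15, 100400395 to 100544995, minus strand, GRCh38) had 173, 162 and 160 expected counts in untreated replicates 1 to 3. The EGF-treated libraries had 78, 60 and 83. All EGF libraries lay below every untreated library. The log2 fold change was -1.13 (with SE 0.15 and edgeR adjusted p = 2.04e-05), or 2.19-fold lower. CERS3 overlaps the antisense gene CERS3-AS1 by 37520 bases, and whether the counting used the strand is not stated in the sources used here.

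ALOXE3 (chromosome 17, 8095900 to 8119047, minus strand), which isomerizes the hydroperoxide that ALOX12B makes, had 8, 3 and 5 expected counts in untreated libraries. With EGF it had 26, 31 and 35. The lowest EGF library had more than 3 times the counts of the highest untreated library, but all values were low. This gave a log2 fold change of 2.53 (with SE 0.37 and edgeR adjusted p = 6.50e-05), with a 95% interval of 1.61 to 3.44. Here and below, intervals use the SE with 6 residual degrees of freedom. They can include 0 where the unadjusted edgeR p is under 0.05. ALOXE3 passed the count filter through its EGF libraries alone, and where 10 counts in every library were required it was not tested.

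ELOVL1 (chromosome 1, 43363398 to 43368074, minus strand) was counted 2091, 2219 and 2178 times in untreated and 2604, 3178 and 2908 times in EGF-treated libraries. Every EGF library was above every untreated one. Its log2 fold change of 0.45 (with SE 0.07 and edgeR adjusted p = 1.47e-04) stayed below the fold limit. It was 0.52 without EGF replicate 1, which made ELOVL1 a DEG.

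SPTLC3 (chromosome 20, 13008972 to 13169103, plus strand) had 732, 702 and 695 counts in untreated libraries and 638, 340 and 560 with EGF. Replicate 2 with EGF stood far below the other two. Its log2 fold change was -0.44 (with SE 0.16 and edgeR adjusted p = 0.0262). It was -0.63 (adjusted p = 0.00137) and a DEG without EGF replicate 1, and -0.21 (adjusted p = 0.0456) without EGF replicate 2, so its size rests on which EGF libraries enter. With untreated replicate 1 or 2 left out, its adjusted p was 0.0707 or 0.0627.

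Replicate 2 was the EGF library farthest from the untreated mean for 4 of the 7 tested members (CERS3, ELOVL1, ABCA12 and SPTLC3), replicate 3 for 2 and replicate 1 for 1. The library was kept, and the calls of CERS3 and ALOXE3 were the same without it.

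SMPD1 (chromosome 11, 6390440 to 6394998, plus strand) had 216, 220 and 200 counts in untreated libraries and 147, 177 and 179 with EGF, a log2 fold change of -0.31 (with SE 0.11 and edgeR adjusted p = 0.0290). ABCA12 (chromosome 2, 214931542 to 215138626, minus strand) had 210, 181 and 214 counts in untreated libraries and 244, 266 and 235 with EGF, a log2 fold change of 0.34 (with SE 0.12 and edgeR adjusted p = 0.0224). Both passed by p and not by fold, and neither p held under each omission. The adjusted p of SMPD1 reached 0.101 without EGF replicate 1 and was also above 0.05 without EGF replicate 3 or untreated replicate 1 or 2. That of ABCA12 reached 0.0925 without untreated replicate 2 and was 0.0683 without EGF replicate 2.
UGCG (chromosome 9, 111896814 to 111935369, plus strand) had 1183, 1236 and 1173 counts in untreated libraries and 1282, 1242 and 1372 with EGF. The groups were separated by 6 counts only. Its estimate was 0.15 on the log2 scale (with SE 0.07 and edgeR adjusted p = 0.0605), with an interval of -0.01 to 0.31. The interval includes 0, while the unadjusted edgeR p was 0.0410. Another scaling moved these small values, since with upper-quartile factors the median of all genes was -0.12 and ABCA12 stood at 0.23 (adjusted p = 0.0937).

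ELOVL4 (chromosome 6, 79914814 to 79947553, minus strand) and ALOX12B (chromosome 17, 8072636 to 8087716, minus strand) did not pass the count filter. ELOVL4 was counted 2, 2 and 4 times in untreated libraries, 12, 2 and 6 times with EGF and 0, 1 and 6 times with bleogen pB1. Its groups overlapped throughout, and most of these counts are near the 3-count floor. ALOX12B, the lipoxygenase that acts first on acylceramide, was counted 6, 9 and 15 times in untreated libraries, 8, 16 and 9 times with EGF, and 5, 4 and 5 times with bleogen pB1. The bleogen pB1 libraries were the lowest for ALOX12B, without overlap with either other group, but at these counts the fit of all 9 libraries did not test it. Without the count filter, its edgeR adjusted p was 0.287 for bleogen pB1 against untreated and 0.0554 for EGF against bleogen pB1.

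With bleogen pB1, none of the 7 tested members was a DEG. In this comparison 1.48% of all tested genes were DEGs, 0.218% upregulated and 1.26% downregulated, so that none among 7 is near the background. By edgeR adjusted p alone the count was also 0, and 2 members had an unadjusted p under 0.05 (UGCG and ALOXE3). DESeq2 called 0 of the 6 members it tested, which did not include ALOXE3. The libraries of the 2 groups did not overlap for 2 of the 7 (UGCG and SMPD1), against 29.1% of all genes.
UGCG was counted 973, 1030 and 1120 times with bleogen pB1, each below the lowest untreated library. The log2 fold change was -0.24 (with SE 0.07 and edgeR adjusted p = 0.0565), and its adjusted p ranged from 0.0239 to 0.101 over the alternatives that kept all libraries of the groups compared. SMPD1 was counted 186, 197 and 199 times, just under the untreated range. Its log2 fold change was -0.17 (interval -0.44 to 0.10).
ALOXE3 was counted 7, 15 and 11 times with bleogen pB1, between the untreated and the EGF-treated libraries and overlapping the former. Its log2 fold change was 0.99 (with SE 0.44 and edgeR adjusted p = 0.210), with an interval of -0.09 to 2.06. That interval includes 0, while the unadjusted edgeR p was 0.0436. These values do not settle whether ALOXE3 differed from untreated.
CERS3 was counted 163, 206 and 197 times, around and above the untreated libraries. Its log2 fold change was 0.15 (interval -0.17 to 0.48). The whole of that interval lies above the value found with EGF.
For the remaining 3 the estimates were near 0. The log2 fold change of ELOVL1 was -0.02 (2040, 2262 and 2271 counts, interval -0.21 to 0.16). That of ABCA12 was -0.03 (176, 222 and 210 counts, interval -0.32 to 0.26). That of SPTLC3 was -0.03 (732, 692 and 717 counts, interval -0.41 to 0.35). For ABCA12 and SPTLC3 these intervals overlap those of EGF against untreated (0.05 to 0.62 and -0.82 to -0.05).

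**Figure D2:**
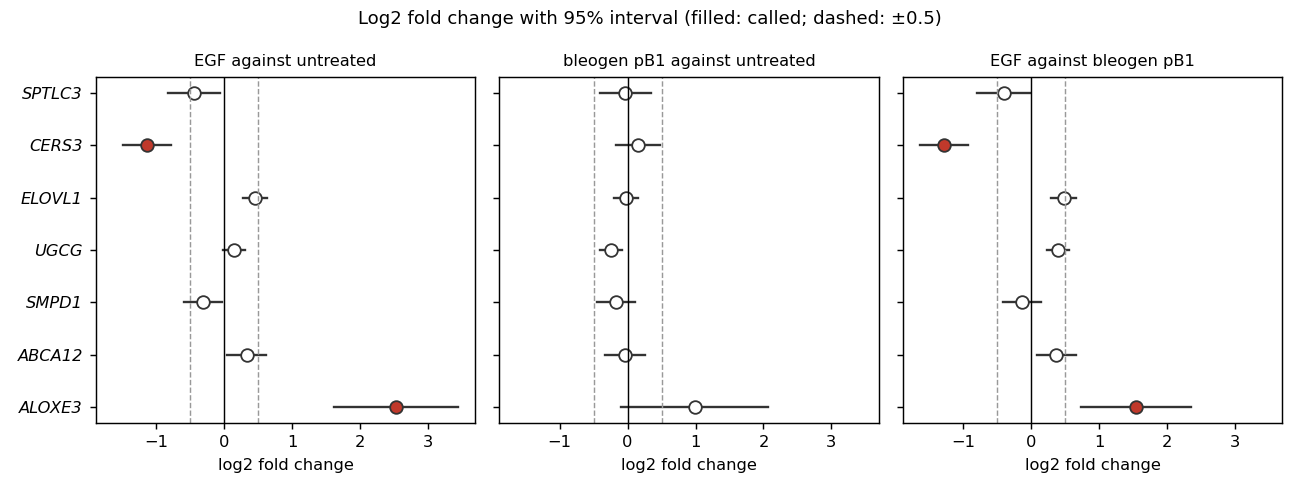
Log2 fold change (x axis) of the 7 tested genes in the 3 comparisons, with 95% intervals. Filled points are DEGs and dashed lines the fold limit of 0.5. CERS3 and ALOXE3 were DEGs in both comparisons that involve EGF, and no gene was with bleogen pB1 against untreated.

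The direct comparison of EGF with bleogen pB1 gave the same 2 DEGs. CERS3 was lower with EGF by a log2 fold change of -1.28 (with SE 0.14 and edgeR adjusted p = 1.03e-05), and ALOXE3 was higher by 1.54 (with SE 0.33 and edgeR adjusted p = 0.00145). As given above, ALOXE3 passed the count filter through its EGF libraries, the group in which it was high. Here 28.8% of all tested genes were DEGs, 10.8% higher and 18.0% lower with EGF, so the share among the members again resembles the background.
By adjusted p alone, 6 of 7 members differed between the treatments, against 58.2% of all genes, and 6 of 7 did not overlap, against 62.4%. UGCG was higher with EGF by 0.39 (with SE 0.07 and edgeR adjusted p = 2.57e-04). ELOVL1 differed by 0.48 (adjusted p = 1.44e-04), ABCA12 by 0.37 (adjusted p = 0.0159) and SPTLC3 by -0.41 (adjusted p = 0.0418), all under the fold limit. The pass of SPTLC3 by p was lost on leaving out any library but EGF replicate 1, with an adjusted p of up to 0.0999, and its value was -0.18 without EGF replicate 2 and -0.60 without EGF replicate 1. That of ABCA12 was lost without bleogen pB1 replicate 1 (0.29, adjusted p = 0.0659).
SMPD1 differed by -0.14 (interval -0.41 to 0.14). The comparisons share libraries, so they are not independent of each other, and the doses differ.
Without EGF replicate 1 this comparison had 5 DEGs among 8 tested members (also ELOVL1, ALOX12B and SPTLC3), against 30.5% of all genes. Without EGF replicate 3 it had 4 of 8 (also ELOVL1 and ALOX12B), against 27.1%. It had 3 of 8 without untreated replicate 1 or 2 (also ALOX12B), against 28.5% in each. Without bleogen pB1 replicate 3 it also had 3 of 8 (also ELOVL1), against 27.5%. ALOX12B entered the test in these fits because the filter is set by the smallest group. It passed the filter through untreated and EGF-treated libraries only, having 4 to 5 counts per bleogen pB1-treated library.

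Set among the ceramide synthases, CERS3 was a minor member of its family in all groups. Its share of the summed FPKM of CERS1 to CERS6 was 1.75 to 1.81% in untreated, 0.610 to 0.809% in EGF-treated and 1.66 to 2.07% in bleogen pB1-treated libraries. CERS2, which makes very long chain ceramides, held 66.7 ± 0.498% in untreated and 74.7 ± 1.68% in EGF-treated cells. CERS6, which prefers C16 acyl chains, held 20.2 ± 0.355% and 11.7 ± 0.443%, and was a DEG with EGF (log2 fold change -0.61, edgeR adjusted p = 5.02e-06). CERS4 had 23, 29 and 7 counts in untreated libraries, 0 in each EGF library and 20, 10 and 10 with bleogen pB1. Taking 3 counts per EGF library as the floor, its mean level was at least 6.44-fold lower with EGF. Untreated replicate 3, at 7 counts, was nearer that floor. CERS4 passed the count filter through untreated and bleogen pB1-treated libraries only. Thus CERS3, CERS4 and CERS6 were lower with EGF by the DEG rule, which 21.8% of all tested genes were too. CERS2 was higher by 0.33 and CERS5 by 0.41 (edgeR adjusted p = 0.00171), both under the fold limit. The summed FPKM of the family was 118 ± 3.15 in untreated and 127 ± 4.54 in EGF-treated cells.

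SPTLC3 shares its role with SPTLC2, the large subunit expressed in most tissues. Of the FPKM of both, SPTLC3 held 38.8 to 41.2% in untreated, 30.8 to 45.2% in EGF-treated and 44.6 to 45.7% in bleogen pB1-treated libraries. SPTLC2 itself was lower with EGF (log2 fold change -0.37, edgeR adjusted p = 8.23e-05) and with bleogen pB1 (-0.30, adjusted p = 0.00963), both under the fold limit.
ELOVL1 held 36.0 to 38.9% of the FPKM of ELOVL1 and ELOVL4 to ELOVL7 in untreated, 45.5 to 50.8% in EGF-treated and 43.6 to 45.1% in bleogen pB1-treated libraries. With bleogen pB1 the FPKM of ELOVL1 was near that of untreated cells, while ELOVL5, an elongase of polyunsaturated fatty acids, stood at 65.5 ± 1.87 against 91.9 ± 3.38 FPKM. ELOVL5 was just past the fold limit as a DEG with bleogen pB1 (log2 fold change -0.50, edgeR adjusted p = 3.00e-04).
ABCA12 held 7.69 to 8.23% of the FPKM of the ABCA transporters in untreated, 11.9 to 12.4% in EGF-treated and 7.12 to 9.09% in bleogen pB1-treated libraries. ABCA2, the most abundant of that family in untreated cells, stood at 6.15 ± 0.184 FPKM in untreated and 3.99 ± 0.139 FPKM in EGF-treated cells, where ABCA7 stood at 4.50 ± 0.935 FPKM.
ALOXE3 held 7.94 to 21.4% of the FPKM of 6 lipoxygenase genes in untreated, 45.5 to 62.2% in EGF-treated and 22.9 to 37.3% in bleogen pB1-treated libraries. The other lipoxygenases were as scarce, with ALOX12, the highest of them in untreated cells, at 0.270 ± 0.0557 FPKM. SMPD1 held 8.28 to 9.36%, 5.87 to 7.06% and 7.11 to 7.61% of the FPKM of SMPD1 to SMPD4 in the 3 groups in the same order.

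**Figure D3:**
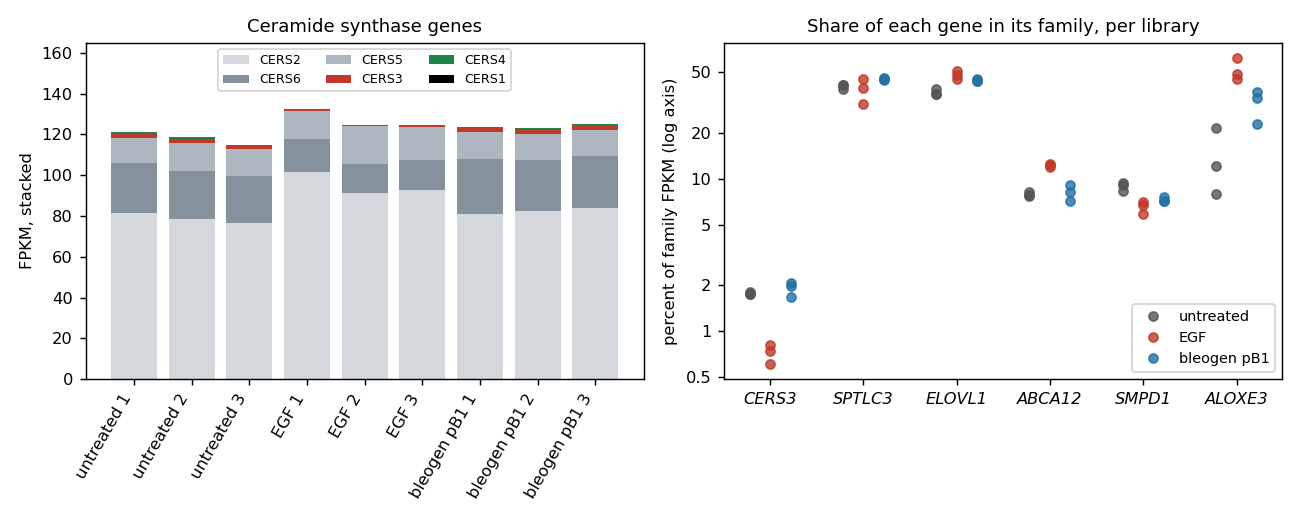
Left, FPKM of the 6 ceramide synthase genes stacked in each library. Right, the share (percent, log axis) that each of 6 members had in the FPKM of its family, 1 point per library. The CERS3 band is thin in all libraries and thinnest with EGF, and the shares of ALOXE3 and ABCA12 are highest with EGF.

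The other genes of the pathway were read from 6 lists with 91 genes, of which 69 were tested. With EGF 12 were upregulated and 16 downregulated, 40.6% of those tested, near the 36.9% of all genes. Of all tested genes, 15.1% rose and 21.8% fell with EGF, the background for each list below. With bleogen pB1 none was upregulated and 2 were downregulated, 2.9% of those tested, against 1.48% of all genes.
In sphingoid base and ceramide synthesis, 2 of 12 rose and 2 fell with EGF. KDSR, which reduces the first sphingoid intermediate, rose (log2 fold change 0.59, edgeR adjusted p = 1.29e-06), and CERS6 and CERS4 were the falls. In fatty acid elongation, 2 of 14 rose and 3 fell. ACSL4, which activates polyunsaturated fatty acids, rose (0.58, adjusted p = 2.45e-06), and ACSL1, another acyl-CoA synthetase, fell (-0.88, adjusted p = 1.02e-06). The dehydratase HACD4 fell as well (-1.21, adjusted p = 0.00194).
With bleogen pB1, ACSL1 (-0.65, adjusted p = 6.41e-04) and ELOVL5 were the 2 falls of this list, in which the members ELOVL1 and ELOVL4 were not counted.
In glucosylceramide, sphingomyelin and ceramide turnover, 7 of 22 rose and 3 fell with EGF. The alkaline ceramidase gene ACER3 rose (1.28, adjusted p = 1.59e-07), as did SPHK1, which phosphorylates sphingosine (1.23, adjusted p = 2.84e-06). SMPD3, a neutral sphingomyelinase, fell (-2.19, adjusted p = 5.15e-06) from 0.457 ± 0.0321 to 0.0967 ± 0.0153 FPKM. The value of SMPD1 in the same comparison was -0.31.
Among the genes for acylceramides and the lipid envelope, only 6 of 17 could be tested. TGM1, the transglutaminase that crosslinks the cornified envelope, fell with EGF (-1.81, adjusted p = 3.84e-06), and none rose. CYP4F22, the hydroxylase of ultra long chain fatty acids, was listed in no library, as were LIPN and LIPM. PNPLA1, which esterifies linoleate to the ceramide, was counted 2 times over the untreated, 0 times over the EGF-treated and 3 times over the bleogen pB1-treated libraries. ABHD5, the coactivator of PNPLA1, was well above the floor at 4.26 to 4.96 FPKM in untreated and 6.73 to 6.91 FPKM in EGF-treated libraries (log2 fold change 0.42, adjusted p = 6.23e-04, under the fold limit). That fold change rests on counts, 1018 summed over untreated and 1335 over EGF-treated libraries, and FPKM rose by more.
In the ABCA list, 4 of 7 fell with EGF and none rose, with a median log2 fold change of -0.56 beside -0.01 for all genes, of which 21.8% fell. ABCA5 fell (-0.70, adjusted p = 6.15e-04), and ABCA9 (-1.25) and ABCA3 (-1.23) did so at under 20 counts per library. ABCA9 and ABCA3 passed the count filter only through libraries without EGF, where they were higher. The count of falls and the median of this list rest partly on them. The value of ABCA12 in the same comparison was 0.34.
Of 8 nuclear receptors known to act on barrier lipids, 1 rose and 3 fell with EGF. PPARG, a receptor for fatty acid derivatives, rose (0.91, adjusted p = 5.93e-06), and NR1H3, an oxysterol receptor, fell (-1.23, adjusted p = 2.83e-05), as did their partner RXRB (-0.84, adjusted p = 9.74e-06).

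**Figure D4:**
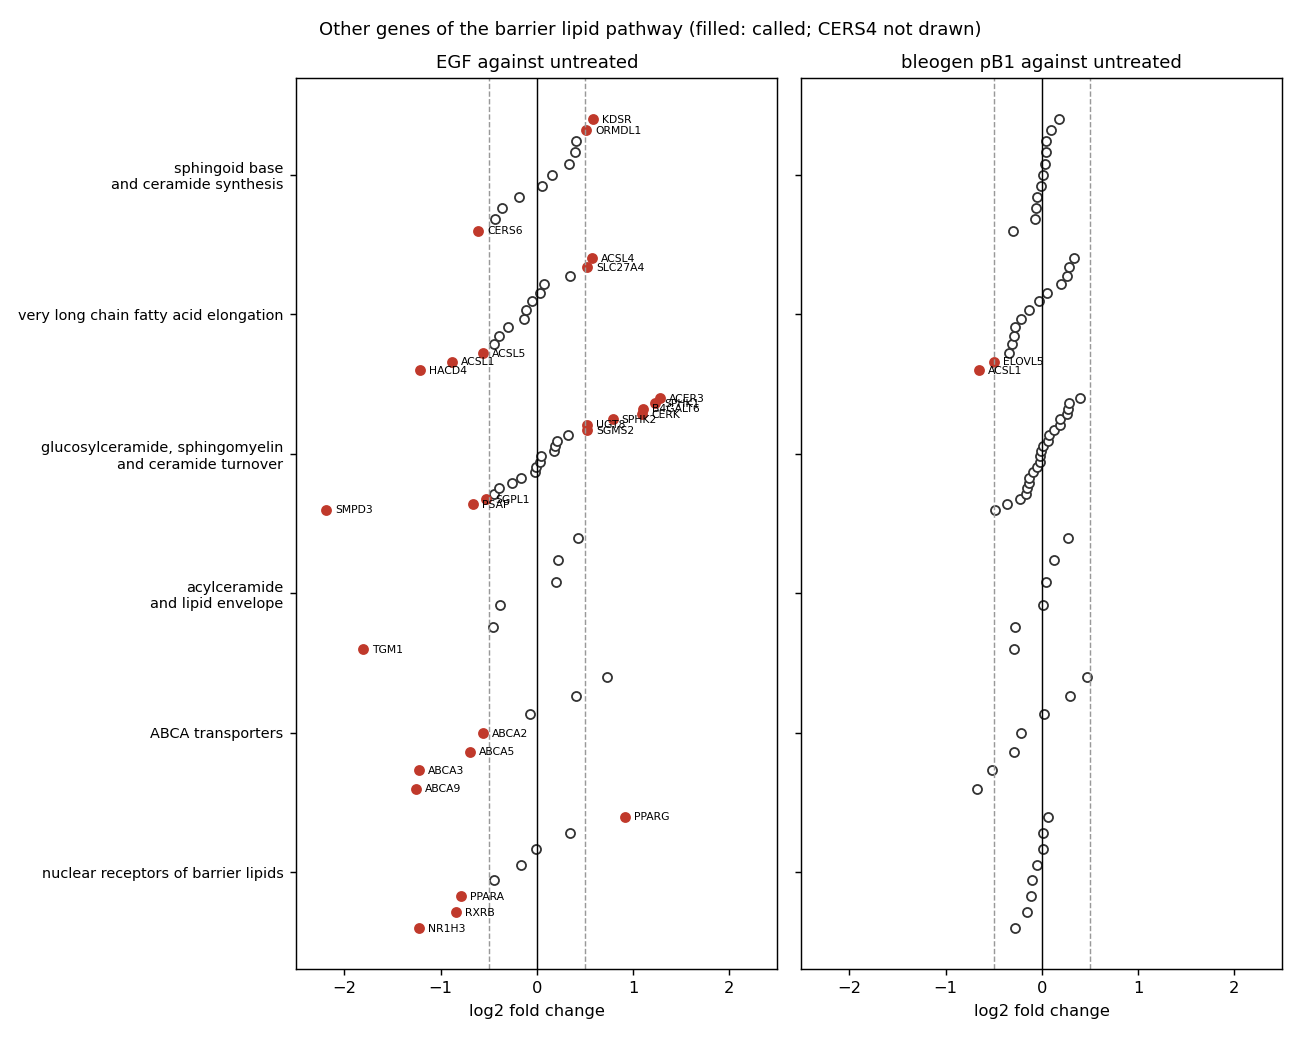
Log2 fold change (x axis) of the tested genes of 6 lists of the barrier lipid pathway, with EGF (left) and bleogen pB1 (right) against untreated cells. Filled and named points are DEGs, dashed lines the limit of 0.5, and CERS4 is not drawn. With EGF the ABCA list has 4 DEGs, all lower, of which ABCA3 and ABCA9 passed the count filter only through libraries without EGF. With bleogen pB1 only ACSL1 and ELOVL5 are DEGs.

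Of the 7 markers of differentiated keratinocytes, 4 were tested, and with EGF 2 fell, 1 rose and 1 was not a DEG. IVL, an envelope precursor, had 300, 311 and 272 counts in untreated, 23, 13 and 19 in EGF-treated and 287, 124 and 221 in bleogen pB1-treated libraries. KRT1, the early differentiation keratin, had 166, 159 and 113, then 12, 7 and 6, and 343, 199 and 257 in the same order. Both fell with EGF (IVL -3.96, edgeR adjusted p = 3.68e-07, and KRT1 -4.08, adjusted p = 5.10e-07). KRT1 passed the count filter through untreated and bleogen pB1-treated libraries, its EGF counts being mostly under 10. KRT10 instead rose with EGF (0.67, adjusted p = 3.72e-04). FLG, the filaggrin gene and the most abundant of the list, was at 13.3 to 17.6 FPKM in untreated and 12.1 to 16.9 FPKM in EGF-treated libraries (-0.02, adjusted p = 0.892). With bleogen pB1, KRT1 rose (0.83, adjusted p = 0.0478) and FLG was at -0.44 (adjusted p = 0.0454), under the fold limit. CERS3 thus went the way of IVL and KRT1, and ALOXE3 that of KRT10, while FLG hardly differed with EGF. In bulk RNA, fewer cells of a type and less RNA per cell cannot be told apart, and the part of a changed share of differentiated cells in the values of CERS3 and ALOXE3 was not tested. Markers of other cell types were low: the 5 fibroblast markers summed to 1.42 to 1.80 FPKM in untreated, 0.210 to 0.330 in EGF-treated and 1.14 to 1.83 in bleogen pB1-treated libraries, the 4 endothelial markers to at most 0.180 and the 4 melanocyte markers to at most 0.870 FPKM. The 5 leukocyte markers summed to 6.59 to 7.01 FPKM in untreated, 10.3 to 11.4 in EGF-treated and 5.90 to 6.67 in bleogen pB1-treated libraries. Of these only CD68, which is not restricted to leukocytes, was high enough to be tested, and it rose with EGF (0.77, adjusted p = 1.11e-05).

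Of the members, CERS3 had the smallest adjusted p with EGF. The genes whose levels were most like its own over the 9 libraries were UQCRC2 (Pearson r = 0.989 of log2 CPM), TSPAN13 (0.989), HEG1 (0.988), SLITRK5 (0.987) and BID (0.987). The likeness is a description of 9 libraries that fall into 3 groups, and 218 of 10867 genes had an r of at least 0.95. All 5 were lower with EGF than in untreated cells, by log2 fold changes from -0.88 (HEG1) to -0.24 (BID). With bleogen pB1 they lay between 0.04 and 0.12. Since the 5 were picked for likeness to CERS3 in these same libraries, these directions follow from the choice.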

How the data were processed

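Poly(A) RNA of HaCaT cells was sequenced in 9 libraries, 3 per group, grouped from their titles. The authors had reads mapped to GRCh38.p12 (per the submitters' processing notes), and the aligner and counter are not given in the sources used here. The labels name another extraction kit and sequencing platform than the paper. The deposited expected counts are unscaled estimates for each gene, and FPKM values deposited by the authors are scaled for depth and effective length. A gene without an entry in a library was set to 0 there.

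Expected counts were rounded and tested with edgeR 4.0.16 (filterByExpr, 12394 genes kept, TMM, quasi-likelihood test) in R 4.3.3, fitting the 9 libraries together with 1 coefficient per group, which left 6 residual degrees of freedom. SEs were computed from the F statistic as |log2 fold change| over its square root. DEG limits are those of the paper, which used DESeq2. Depth was 20288417 to 21320994 counts. No 2 libraries held identical values.

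All 9 members are named. Of each pathway list, the DEGs with EGF of the 3 largest changes and every DEG with bleogen pB1 are named, with the 5 genes most like CERS3 (at least 50 counts on average). Genes named for family or marker values were chosen after these were seen. Members and lists were chosen with earlier results of these data known.

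Alternatives were DESeq2 1.42.0, RLE and upper-quartile factors, a filter of 10 counts in every library or none, the 6 libraries compared, limma 3.58.1 on log2(FPKM + 1) or log2(FPKM + 0.1) (FPKM of at least 1 or no filter), a replicate block, other DEG limits, and each library left out. Scripts were tested on simulated data. Levels and shares were computed in Python 3.11.15 (pandas 2.3.3, scipy 1.17.1, numpy 2.4.6). Coordinates are from GENCODE 44.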

Additional observations from a re-analysis of the deposited data

How the results depend on the processing

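CERS3 was a DEG with EGF, against untreated and against bleogen pB1, in every alternative tried. No member was a DEG with bleogen pB1 against untreated in any, but ALOXE3 was tested there in only 14 of 19 refits. The number of members that were DEGs, 2 in each comparison with EGF, became 1 in both where 10 counts in every library were required (ALOXE3 was then not tested) and 1 in both with limma on log2(FPKM + 1), with the filter on FPKM (which also left out ALOXE3) or without it. It became 6 in both with adjusted p alone, and ranged from 2 to 4 (against untreated) and from 2 to 5 (against bleogen pB1) with 1 library left out. In those omissions, 35.2 to 37.8% and 24.8 to 32.3% of all tested genes were DEGs. For ALOXE3, limma on log2(FPKM + 1) without a filter gave 0.42 against untreated and 0.32 against bleogen pB1, under the fold limit, since the pseudocount of 1 exceeds its level. Of 388 recomputed log2 fold changes, 370 kept direction and call, 9 passed the limits anew, 2 no longer did and 7 changed sign. The changes of sign were those of ELOVL1 and ABCA12 with bleogen pB1, both near 0. ELOVL1 was 0.0028 with limma on log2(FPKM + 1), with and without a filter, and 0.0029 on log2(FPKM + 0.1). Leaving out 1 library gave -0.049 to 0.015 for ELOVL1 (0.0147 at most, 0.0074 without untreated replicate 2) and -0.10 to 0.05 for ABCA12 (0.0469 at most, 0.0015 without untreated replicate 3). SPTLC3 became a DEG with EGF against untreated at -0.54 both with upper-quartile factors and with limma on log2(FPKM + 0.1). In the latter, the 2 DEGs of each comparison with EGF were CERS3 and SPTLC3, and ALOXE3 was not tested.

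Adding a replicate block left the counts of members that were DEGs at 2, 0 and 2. Deviations of same-numbered libraries correlated at 0.045, 0.036 and 0.004 (EGF and untreated), 0.207, -0.030 and 0.113 (bleogen pB1 and untreated) and 0.056, 0.038 and 0.027 (EGF and bleogen pB1). Libraries of unlike number correlated at -0.076 to 0.041, -0.253 to 0.163 and -0.078 to 0.050 in the same order. With 3 libraries per group, these values cannot decide whether the numbers pair the libraries. Depth limits ALOX12B, ALOXE3 and ELOVL4, which had at most 35 counts in any library.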
